A study of Mus musculus with 15 samples.

Results

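The genes described here make L-serine, turn it into D-serine or glycine, break it down or carry it into mitochondria. They were taken by symbol from the deposited expression table, which listed 10 of 10 among its 26595 genes: Phgdh, Psat1, Psph, Shmt1, Shmt2, Srr, Dao, Sds, Sdsl and Sfxn1. RNA was sequenced from brain of male C57Bl/6 mice aged 5 months. Mice were Slc1a4 -/- (KO), with Slc1a4, the gene of ASCT1, knocked out; ASCT1 is a plasma membrane exchanger of serine, alanine and other small neutral amino acids. The other mice were wild type (WT). The series compares the genotypes in cerebral cortex and in striatum, and the 15 libraries form 4 groups: KO striatum (3 libraries, replicates 2 to 4), WT striatum (4, replicates 5 to 8), KO cortex (4, replicates 1 to 4) and WT cortex (4, replicates 5 to 8). How the Slc1a4 allele was made, and in which cells it is lost, is not given in the labels. Whether each replicate is an animal of its own is not stated either, and a p-value here refers to the spread between samples, part of which may be technical.

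Brain makes much of its L-serine from glucose. Phgdh (phosphoglycerate dehydrogenase) oxidizes the glycolytic intermediate 3-phosphoglycerate, Psat1 (phosphoserine aminotransferase) adds the amino group from glutamate, and Psph (phosphoserine phosphatase) releases L-serine; the pathway is best known in astrocytes. Serine hydroxymethyltransferases, cytosolic Shmt1 and mitochondrial Shmt2, split L-serine into glycine and a carbon unit bound to folate, and Sfxn1 (sideroflexin) carries serine into mitochondria. Srr (serine racemase) makes D-serine, a co-agonist of NMDA-type glutamate receptors, and is found mainly in neurons in forebrain. Dao (D-amino acid oxidase) degrades D-serine, and Sds (serine dehydratase), best known in liver, converts L-serine to pyruvate. Sdsl (serine dehydratase-like) is related to Sds.

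Promoter windows from RefSeq (GRCm38.p6, 250 bases before to 50 after an annotated start) were found for 8 of the 10 genes and not for Sds and Sdsl. Windows at a start site are printed for Phgdh, Psat1 and Sfxn1, which were higher in striatum than in cortex in both genotypes, and for Srr, which was lower. The Phgdh window is chr3:98339920-98340219, the Psat1 window chr19:15925010-15925309 and the Srr window chr11:74925899-74926198, all on the minus strand. The Sfxn1 window is chr13:54071595-54071894 on the plus strand. Each is written 5′ to 3′, and capitals mark the CCAAT box, the GC box (letters GGGCGG) and the TATA box (letters TATAAA), searched on both strands.
Phgdh: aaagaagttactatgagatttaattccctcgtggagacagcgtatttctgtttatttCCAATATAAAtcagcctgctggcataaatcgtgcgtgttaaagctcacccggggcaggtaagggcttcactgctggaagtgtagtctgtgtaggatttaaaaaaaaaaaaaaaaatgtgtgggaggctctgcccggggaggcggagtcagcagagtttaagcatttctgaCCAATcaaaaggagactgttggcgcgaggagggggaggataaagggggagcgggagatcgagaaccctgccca
Psat1: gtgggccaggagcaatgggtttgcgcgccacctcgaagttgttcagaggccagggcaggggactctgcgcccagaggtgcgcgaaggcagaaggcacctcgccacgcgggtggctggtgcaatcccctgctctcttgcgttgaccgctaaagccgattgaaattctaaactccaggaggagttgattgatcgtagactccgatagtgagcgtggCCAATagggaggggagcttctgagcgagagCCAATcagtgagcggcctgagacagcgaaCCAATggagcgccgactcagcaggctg
Sfxn1: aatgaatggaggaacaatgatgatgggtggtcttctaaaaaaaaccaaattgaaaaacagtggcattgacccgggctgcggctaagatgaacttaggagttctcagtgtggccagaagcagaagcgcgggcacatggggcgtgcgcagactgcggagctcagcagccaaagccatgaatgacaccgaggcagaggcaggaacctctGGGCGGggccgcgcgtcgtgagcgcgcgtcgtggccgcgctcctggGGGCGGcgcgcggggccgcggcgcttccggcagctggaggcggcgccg
Srr: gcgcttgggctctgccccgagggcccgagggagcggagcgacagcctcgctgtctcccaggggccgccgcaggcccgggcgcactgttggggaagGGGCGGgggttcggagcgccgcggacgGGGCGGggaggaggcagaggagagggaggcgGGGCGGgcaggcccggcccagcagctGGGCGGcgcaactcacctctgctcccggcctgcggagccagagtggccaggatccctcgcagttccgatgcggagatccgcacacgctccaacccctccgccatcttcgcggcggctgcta
The Phgdh window holds the CCAAT box 2 times and the TATA box 1 time, and its upstream CCAAT box (bases -193 to -189 from the start site) shares its last base with the TATA box (-189 to -184). In the printed Psat1 window the CCAAT box occurs 3 times, starting at bases -36, -6 and 23. Another Psat1 window, at start site 15924622 and not printed, holds the GC box 2 times and no CCAAT box. Sfxn1 has the GC box 2 times and Srr 4 times, and neither holds the CCAAT box. The 8 genes have 11 windows in all, 4 of them printed. The CCAAT box was present in 5 of the 11, and in 37.4% of 32851 mouse windows. The GC box was in 6 of 11 and 35.7% of mouse windows, and the TATA box in 1 of 11 (Phgdh) and 13.6%. TGATGNAA, the letters of an element bound by ATF4 dimers, was in 0 of 11 and 3.97%. GC content was 47.7% in the Phgdh window, 60.3% in Psat1, 63.3% in Sfxn1 and 75.3% in Srr. These are letter matches only.

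Slc1a4 averaged 271 ± 99.3 normalized counts in KO striatum against 1533 ± 217 in WT striatum, and 265 ± 28.7 in KO cortex against 1624 ± 127 in WT cortex (SD). Striatum libraries had 22990233 to 25697792 counted reads and cortex libraries 26791109 to 30276815. The tissue labels were checked with markers. The summed normalized counts of 9 genes of striatal projection neurons were 41349 to 95696 in KO striatum, 82160 to 183652 in WT striatum, 7120 to 12308 in KO cortex and 7059 to 19514 in WT cortex, and those of 8 genes of cortical excitatory neurons were 6780 to 12677, 3185 to 7401, 49879 to 55618 and 49878 to 56161 in the same order. Striatum libraries did not form uniform groups. KO striatum replicate 4 had the lowest striatal sum of its group and WT striatum replicate 8 the lowest of its own. Choroid plexus genes (8) summed to 90030 in KO striatum replicate 4 and 146795 in WT striatum replicate 5, against 1915 to 6899 in the other striatum libraries. For KO against WT in striatum, values without KO striatum replicate 4 are given beside those of all libraries.

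Phgdh, Psat1 and Srr were the most abundant of the 10 genes, and Sds and Dao the least abundant. On a scale of reads per kilobase of annotated exon, corrected for library size (RPKM), Psat1 was highest of the 10 genes in all 4 groups, at 37.0 ± 7.06 in KO striatum, 41.6 ± 3.50 in WT striatum, 25.8 ± 0.861 in KO cortex and 27.3 ± 1.52 in WT cortex (SD). Phgdh stood at 24.1 ± 5.13, 30.0 ± 2.04, 15.6 ± 1.71 and 18.3 ± 1.103 on this scale in the same groups, and Srr at 17.4 ± 3.02, 18.6 ± 2.12, 22.3 ± 0.423 and 22.0 ± 0.650. Phgdh thus ranked above Srr in striatum and below it in cortex, although their mean ± SD ranges overlapped in KO striatum. Among all genes tested, Psat1 was at percentile 93.5 and Phgdh at 90.4 in WT striatum, and at 89.2 and 83.2 in WT cortex. Sfxn1 followed, at 7.75 ± 1.23 in KO striatum and 8.38 ± 0.718 in WT striatum, against 5.19 ± 0.304 in KO cortex and 5.40 ± 0.118 in WT cortex. Shmt2 (4.19 to 4.71 over the 4 group means) came next, then Psph (2.84 to 3.43), Sdsl (1.07 to 2.20) and Shmt1 (0.332 to 0.472). Neighbours in this order did not differ beyond 1 SD for Shmt2 and Psph in WT striatum and for Sfxn1 and Shmt2 in KO cortex. Shmt1 and Sds overlapped in both striatum groups, and Sds and Dao in every group other than WT striatum. Sds and Dao were at or below 0.337. Exon lengths cover all annotated transcripts, so a gene with long unused exons is understated.

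**Figure D1:**
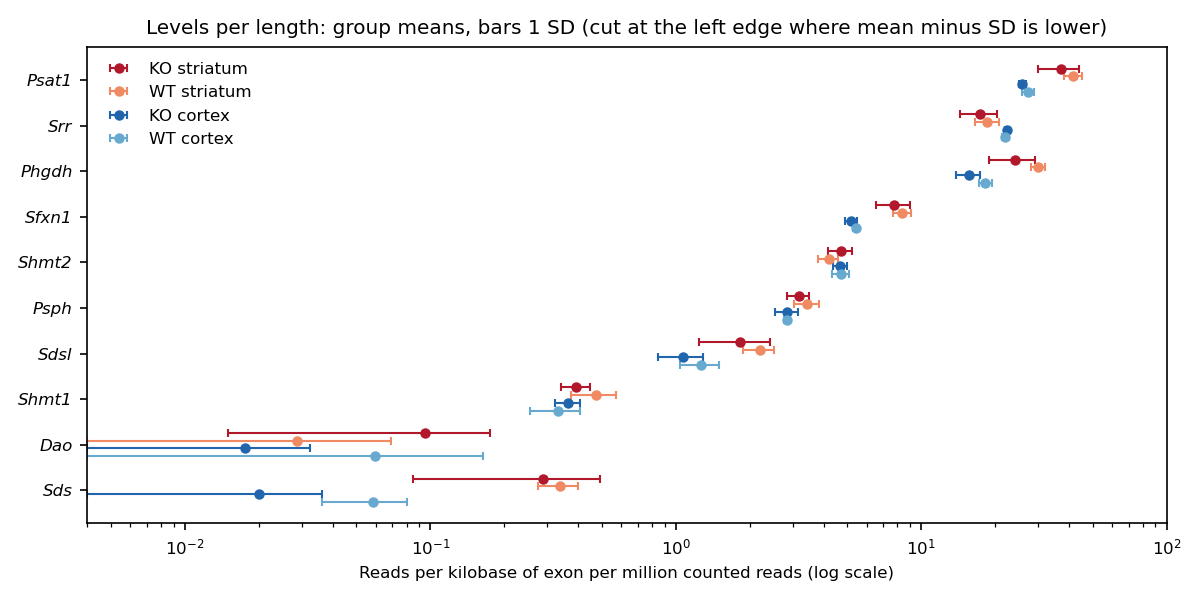
Level of each gene in reads per kilobase of exon, corrected for library size (RPKM, log axis); points are group means and bars 1 SD, cut at the left edge where the mean minus SD is lower. Psat1 is highest in all 4 groups, Phgdh lies above Srr in striatum and below it in cortex, and Sds and Dao lie at the bottom.

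More of these genes passed the test between tissues than between genotypes. Of the 10 genes, 9 were tested; Dao reached a normalized count of 10 in only 2 libraries. Sds reached it in 5 striatum libraries and 0 cortex libraries, so it entered the test only through the tissue where it is high and is left out of the counts that follow. In striatum against cortex, 5 of the remaining 8 passed the test in KO mice and 5 of 8 in WT mice (limma, adjusted p below 0.05), the same genes each time: Phgdh, Psat1, Sdsl and Sfxn1 higher and Srr lower. Of all genes tested, 37.9% passed in KO (18.4% higher and 19.5% lower) and 50.5% in WT (24.9% higher and 25.7% lower). For 8 genes, 5 calls are not far from these shares. The median log2 fold change of the 8 was 0.25 in KO and 0.52 in WT, against 0.00 and 0.01 over all genes. Without KO striatum replicate 4 the KO difference was 0.36 for Phgdh, 0.31 for Psat1, 0.58 for Sfxn1 and -0.31 for Srr, and these 4 still passed.

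**Figure D2:**
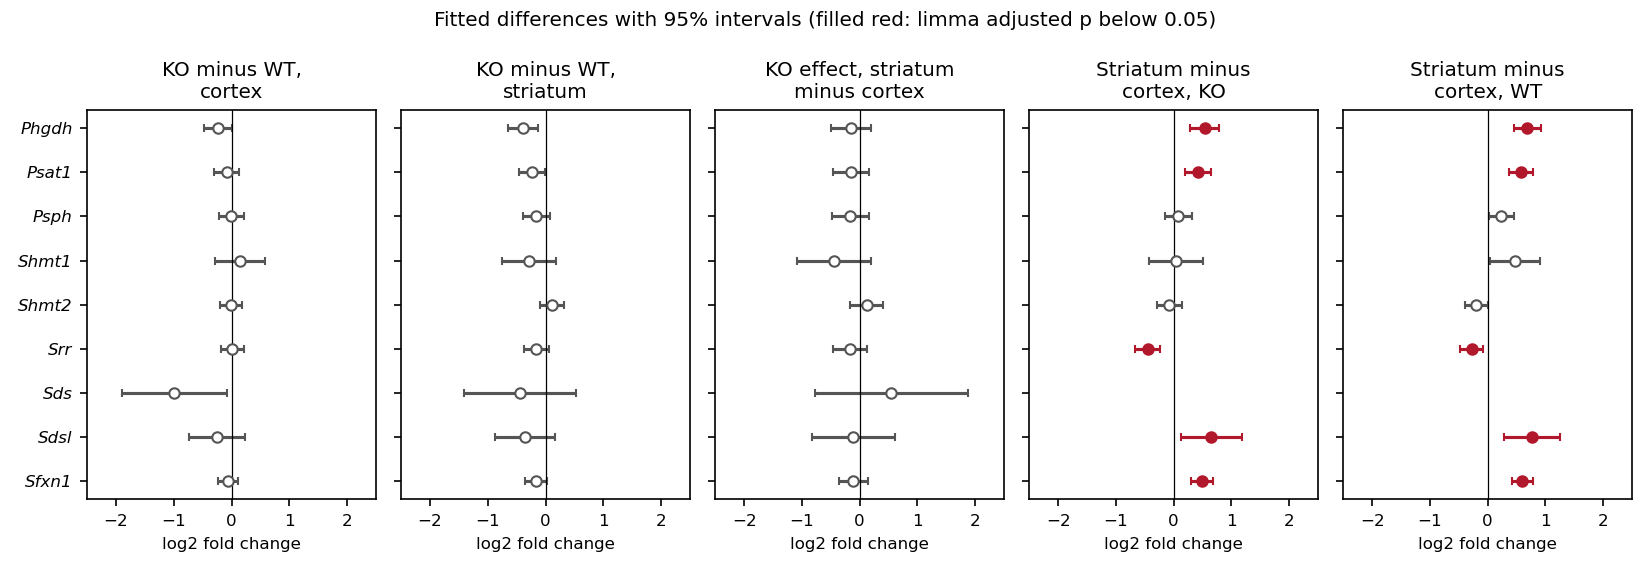
Log2 difference on log2(normalized count + 1) for each tested gene in each comparison, a panel each (Sds, which entered the test through striatum alone, is not drawn between tissues); points are fitted differences, bars 95% intervals, and filled red marks an adjusted p below 0.05. Between tissues Phgdh, Psat1, Sdsl and Sfxn1 are filled above 0 and Srr below 0, and no point is filled in the panels of the genotypes or of the difference between their effects.

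Phgdh, the committed step of serine synthesis (ENSMUSG00000053398, GRCm38 chromosome 3, positions 98313170 to 98339990, minus strand), was higher in striatum in both genotypes. Its normalized counts were 1370, 1280 and 1893 in KO striatum, 2145, 1850, 1901 and 1913 in WT striatum, 1125, 867, 1024 and 1119 in KO cortex, and 1214, 1276, 1231 and 1118 in WT cortex. Every striatum library lay above every cortex library. The log2 difference between striatum and cortex was 0.54 (SE 0.12, limma adjusted p = 0.00282) in KO, a fold of 1.45, and 0.69 (SE 0.11, limma adjusted p = 0.000136) in WT, a fold of 1.61. In KO striatum, replicates 2 and 3 lay below all WT striatum libraries while replicate 4 fell among them. KO minus WT in striatum was -0.39 (SE 0.12, 95% interval -0.64 to -0.13, limma adjusted p = 0.189), which did not pass. Without KO striatum replicate 4 it was -0.56 (limma adjusted p = 0.0171), and it also passed without that library and WT striatum replicate 5 (-0.51, limma adjusted p = 0.0223) or WT striatum replicate 8 (-0.57, limma adjusted p = 0.0164). The adjusted p ranged from 0.0164 to 0.675 over 27 alternatives, and these 3 were the ones below the threshold. In cortex KO minus WT was -0.23 (95% interval -0.47 to 0.00, limma adjusted p = 0.9998), with KO replicates 1 and 4 overlapping the WT libraries. The genotype effects in striatum and cortex differed by -0.15 (95% interval -0.50 to 0.20, limma adjusted p = 0.977).

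Psat1, the aminotransferase (ENSMUSG00000024640, chromosome 19, 15904678 to 15947337, minus strand), went the same way. It had 4254, 3085 and 4600 normalized counts in KO striatum, 4488, 4385, 4450 and 5189 in WT striatum, 2955, 2950, 2775 and 3003 in KO cortex, and 3046, 3070, 2927 and 3353 in WT cortex. Within a genotype the tissues did not overlap, although KO striatum replicate 3 lay within the WT cortex range. Striatum minus cortex was 0.43 on the log2 scale (SE 0.11, limma adjusted p = 0.00608) in KO and 0.58 (SE 0.10, limma adjusted p = 0.000242) in WT. Between genotypes it was -0.24 in striatum (95% interval -0.46 to -0.01, limma adjusted p = 0.317; -0.35 without KO striatum replicate 4) and -0.08 in cortex (95% interval -0.30 to 0.13, limma adjusted p = 0.9998). Phgdh and Psat1 had the most similar profiles of the 45 pairs among the 10 genes, with a root-mean-square difference of 0.175 (log2) over 15 libraries after centring each gene on its mean.

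Psph, the last step (ENSMUSG00000029446, chromosome 5, 129765558 to 129787449, minus strand), did not pass in either tissue comparison in the main limma fit of all libraries. Normalized counts were 389, 324 and 326 in KO striatum, 434, 376, 417 and 327 in WT striatum, 363, 350, 293 and 307 in KO cortex, and 326, 338, 318 and 330 in WT cortex. The groups overlapped, and KO striatum replicate 2 and WT striatum replicates 5, 6 and 7 stood above all cortex libraries. On the log2 scale striatum minus cortex was 0.08 (95% interval -0.15 to 0.31, limma adjusted p = 0.603) in KO and 0.24 (95% interval 0.02 to 0.45, limma adjusted p = 0.0617) in WT. The WT difference passed in 5 of 28 alternatives. Those that kept all libraries were sample weights (0.24, limma adjusted p = 0.0319), total-read scaling (0.26, limma adjusted p = 0.0390) and DESeq2 (0.24, DESeq2 adjusted p = 0.0478). It also passed without WT striatum replicate 8 (0.32, limma adjusted p = 0.0147). KO minus WT was -0.16 in striatum (95% interval -0.39 to 0.07; -0.12 without KO striatum replicate 4) and 0.00 in cortex (95% interval -0.22 to 0.21). Of its exons, 10.4% overlap those of Cct6a on the opposite strand. The strand setting of the counting is not given in the sources used here, so the overlap may have moved its count.

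**Figure D3:**
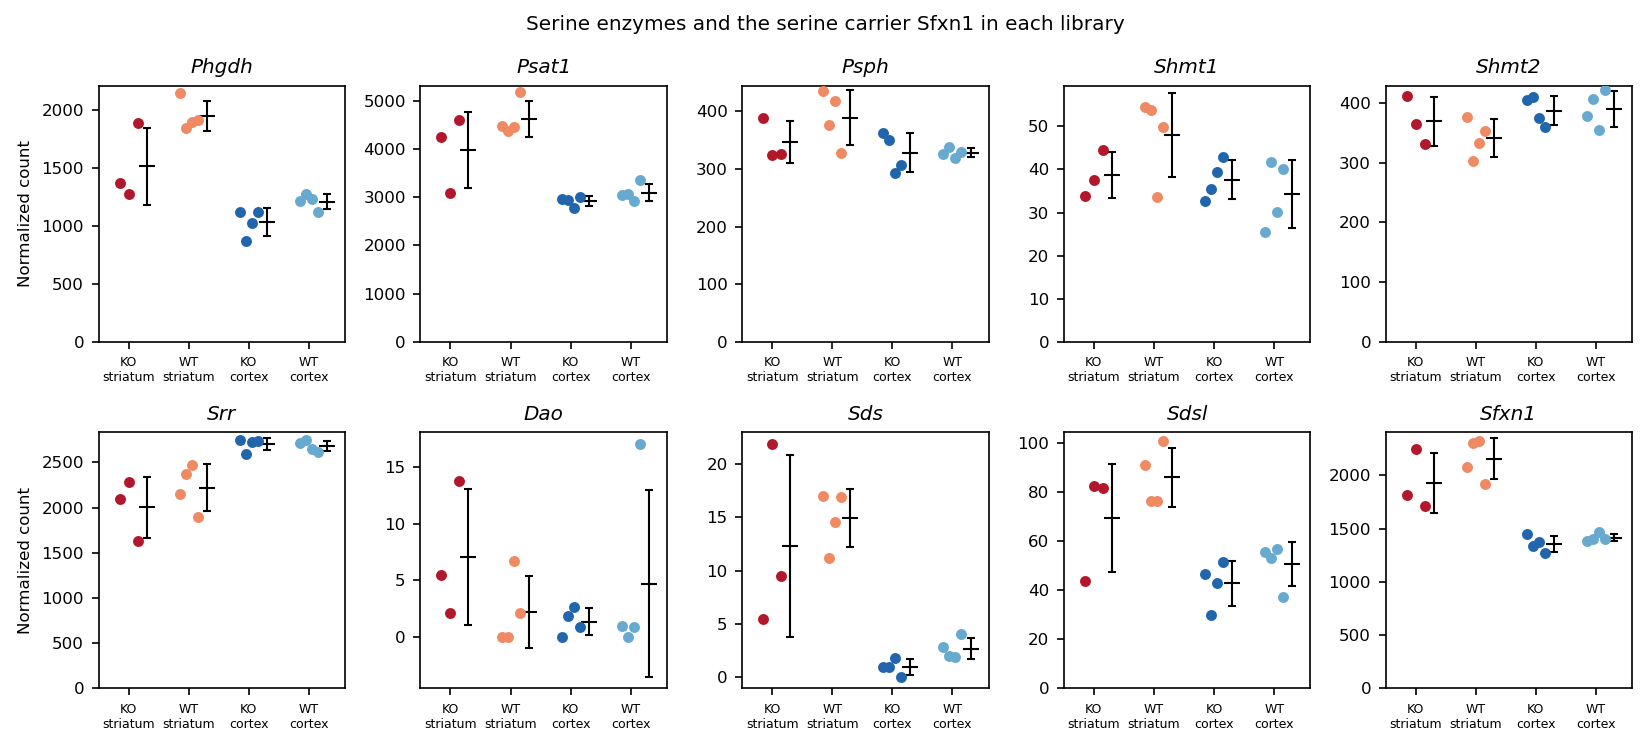
Normalized counts of each of the 10 genes, with a point for each library and the group mean ± SD beside the points, in the order KO striatum, WT striatum, KO cortex, WT cortex. Phgdh, Psat1 and Sfxn1 are higher in both striatum groups than in cortex, Srr is lower, and Psph and Shmt2 overlap.

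Neither hydroxymethyltransferase passed a test in the main limma fit of all libraries, and intervals were wide for Shmt1. Shmt2 (ENSMUSG00000025403, chromosome 10, 127517123 to 127522444, minus strand) averaged 369 ± 40.8 normalized counts in KO striatum, 341 ± 31.6 in WT striatum, 387 ± 24.2 in KO cortex and 390.1 ± 30.5 in WT cortex (SD). In log2 terms the tissues differed by -0.07 (95% interval -0.28 to 0.14, limma adjusted p = 0.606) in KO and -0.19 (95% interval -0.39 to 0.00, limma adjusted p = 0.0909) in WT. Shmt1 (ENSMUSG00000020534, chromosome 11, 60788104 to 60811718, minus strand) was an order lower in count, at 33.9, 37.6 and 44.5 in KO striatum, 54.6, 53.9, 33.7 and 49.8 in WT striatum, 32.6, 35.6, 39.4 and 42.9 in KO cortex, and 25.4, 41.8, 30.2 and 40.1 in WT cortex. Of the Shmt1 exons, 4.74% overlap those of Smcr8 on the opposite strand, which averaged 1584 normalized counts over all libraries. For Shmt1, WT striatum replicates 5, 6 and 8 were the highest of the 15 libraries, and replicate 7 lay among the cortex libraries. Striatum minus cortex was 0.04 on the log2 scale (95% interval -0.43 to 0.51, limma adjusted p = 0.911) in KO and 0.47 (95% interval 0.04 to 0.91, limma adjusted p = 0.0661) in WT. The WT difference of Shmt1 passed in 3 of 27 alternatives: without WT striatum replicate 7 (0.63, limma adjusted p = 0.0181), without WT cortex replicate 6 (0.57, limma adjusted p = 0.0451) and with sample weights (0.53, limma adjusted p = 0.0421). That of Shmt2 passed in 3 of 28, among them with sample weights on all libraries (-0.25, limma adjusted p = 0.0156). The others were without WT striatum replicate 5 (-0.24, limma adjusted p = 0.04995), and without that library and KO striatum replicate 4 (-0.24, limma adjusted p = 0.032). Per length, the mitochondrial enzyme exceeded the cytosolic form by 12.2-fold in KO striatum, 9.21-fold in WT striatum, 13.1-fold in KO cortex and 14.6-fold in WT cortex. KO minus WT intervals were -0.10 to 0.32 in striatum and -0.21 to 0.19 in cortex for Shmt2, and -0.76 to 0.18 and -0.29 to 0.58 for Shmt1. In striatum the difference was 0.11 for Shmt2 and -0.29 for Shmt1, and 0.19 and -0.39 without KO striatum replicate 4.

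Sfxn1, the mitochondrial serine carrier (ENSMUSG00000021474, chromosome 13, 54071869 to 54108342, plus strand), had the smallest adjusted p between tissues in WT among the 9 tested genes. It had 1820, 2250 and 1713 normalized counts in KO striatum, 2081, 2305, 2323 and 1923 in WT striatum, 1450, 1341, 1373 and 1267 in KO cortex, and 1386, 1407, 1469 and 1407 in WT cortex. All 7 striatum libraries exceeded all 8 cortex libraries. On the log2 scale striatum minus cortex was 0.50 (SE 0.09, limma adjusted p = 0.000553) in KO and 0.60 (SE 0.08, limma adjusted p = 3.24e-05) in WT. KO minus WT was -0.17 in striatum (95% interval -0.36 to 0.02, limma adjusted p = 0.382; -0.09 without KO striatum replicate 4) and -0.06 in cortex (95% interval -0.24 to 0.11, limma adjusted p = 0.9998).

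Srr, the racemase (ENSMUSG00000001323, chromosome 11, 74906359 to 74925948, minus strand), went the other way. Normalized counts were 2094, 2279 and 1630 in KO striatum, 2144, 2376, 2475 and 1890 in WT striatum, 2744, 2597, 2729 and 2738 in KO cortex, and 2714, 2741, 2649 and 2612 in WT cortex. Every striatum library lay below every cortex library, and the lowest of each striatum group were KO replicate 4 and WT replicate 8, the libraries with the lowest striatal marker sums. The log2 difference between striatum and cortex was -0.45 (SE 0.10, limma adjusted p = 0.00325) in KO and -0.28 (SE 0.09, limma adjusted p = 0.0235) in WT. Without WT striatum replicate 8 the WT difference was -0.20 (limma adjusted p = 0.0778), and it also missed the threshold without WT cortex replicate 5 (limma adjusted p = 0.0509), WT cortex replicate 6 (0.0546) or WT striatum replicate 5 (limma adjusted p = 0.0509). KO minus WT was -0.16 in striatum (95% interval -0.37 to 0.06, limma adjusted p = 0.478; -0.02 without KO striatum replicate 4, limma adjusted p = 0.933) and 0.01 in cortex (95% interval -0.19 to 0.21, limma adjusted p = 0.9998). Exons of Tsr1 on the opposite strand cover 27.2% of the Srr exons; Tsr1 itself differed between striatum and cortex by -0.05 in KO (limma adjusted p = 0.568) and -0.04 in WT (limma adjusted p = 0.621). Per length, Phgdh stood to Srr as 1.45 ± 0.592 in KO striatum, 1.63 ± 0.247 in WT striatum, 0.701 ± 0.0659 in KO cortex and 0.828 ± 0.0325 in WT cortex (SD).

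Among the enzymes of breakdown, Sdsl (ENSMUSG00000029596, chromosome 5, 120458186 to 120472810, minus strand) had 43.8, 82.4 and 81.5 normalized counts in KO striatum, 91.0, 76.2, 76.3 and 100.7 in WT striatum, 46.7, 29.9, 42.9 and 51.3 in KO cortex, and 55.6, 53.2, 56.7 and 37.1 in WT cortex. KO striatum replicate 2 fell within the cortex range, and the WT tissues did not overlap. The log2 difference between striatum and cortex was 0.76 (SE 0.23, limma adjusted p = 0.0120) in WT. In KO it was 0.65 (SE 0.25, limma adjusted p = 0.0480), and this call was made in 10 of 28 alternatives: leaving out a library kept it in 3 of 15 cases, and without KO striatum replicate 4 the difference was 0.51 (limma adjusted p = 0.169). In 9 of the 18 lost cases the difference itself was unchanged and only the adjusted p moved, to between 0.0507 and 0.116. KO minus WT was -0.36 in striatum (95% interval -0.88 to 0.17, limma adjusted p = 0.509; -0.50 without KO striatum replicate 4) and -0.25 in cortex (95% interval -0.73 to 0.24, limma adjusted p = 0.9998).

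Sds (ENSMUSG00000029597, chromosome 5, 120476526 to 120483932, plus strand), the neighbour of Sdsl on that chromosome, was nearly absent from cortex libraries. It had 5, 21 and 9 reads in KO striatum, 15, 11, 13 and 16 in WT striatum, 1, 1, 2 and 0 in KO cortex, and 3, 2, 2 and 4 in WT cortex. All striatum libraries had more reads than all cortex libraries. Scaled by depth, summed reads in KO striatum were 14.4 times those in KO cortex (35 against 4 reads, exact 95% interval 5.14 to 55.7), and in WT striatum 5.79 times those in WT cortex (55 against 11 reads, 2.999 to 12.3); these intervals cover counting error only. KO over WT was 0.865 in striatum (35 against 55 reads, 0.549 to 1.35) and 0.349 in cortex (4 against 11 reads, 0.0810 to 1.18). Plbd2, whose opposite-strand exons cover 21.2% of those of Sds, was lower in striatum than in cortex, by -0.45 in KO (limma adjusted p = 0.000216) and -0.65 in WT (limma adjusted p = 1.91e-06).

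Dao (ENSMUSG00000042096, chromosome 5, 114003703 to 114025682, plus strand) was close to the floor of 3 reads in most libraries. It had 5, 2 and 13 reads in KO striatum, 0, 0, 6 and 2 in WT striatum, 0, 2, 3 and 1 in KO cortex, and 1, 0, 1 and 17 in WT cortex. A single library held most of the reads in KO striatum (replicate 4), in WT striatum (replicate 7, 6 of 8 reads) and in WT cortex (replicate 8). The ratio of summed reads for KO over WT was 3.40 in striatum (20 against 8 reads, exact 95% interval 1.43 to 8.92) and 0.303 in cortex (6 against 19 reads, 0.0990 to 0.789). Both rest on KO striatum replicate 4 and WT cortex replicate 8: without these the sums were 7 against 8 reads in striatum and 6 against 2 reads in cortex.

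In the main limma fit of all libraries, loss of Slc1a4 was not accompanied by a called change in any of the 9 tested genes. Phgdh in striatum was called only in 3 alternatives, each without KO striatum replicate 4 (-0.56, limma adjusted p = 0.0171 without that library alone). In KO against WT, limma called 0 of 9 in striatum and 0 of 9 in cortex, where it called 0.0763% (0.0705% higher) and 0.00587% of all genes, and 0 of 9 for the difference between those effects (0.00587% of all genes). At an unadjusted p below 0.05 there were 2 (Phgdh and Psat1) in striatum, 1 (Sds) in cortex and 0 for the difference, where 15.3%, 2.51% and 4.90% of all genes had such a p. In addition, edgeR and DESeq2 each called 0 of these genes in the 3 comparisons. In striatum 8 of 9 log2 differences were below 0, with a median of -0.24 against 0.01 over all genes, and in cortex 7 of 9, with a median of -0.06 against 0.00. Groups did not overlap for 0 of 9 genes in striatum, where this held for 8.07% of all genes, and for 1 of 9 (Sds, lower in KO) in cortex, where it held for 4.02%. For Sds the nearest libraries of both cortex groups had 2 reads each and were separated only by their scaling. In striatum against cortex the groups did not overlap for 4 of 8 genes in KO (41.5% of all genes) and 5 of 8 in WT (47.3%), with Sds left out. A p above the threshold does not show that the genotypes are alike; at the 95% level the intervals allow a Phgdh level in KO striatum lower by 0.64 on the log2 scale.

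Several lists of cell type markers also differed between the tissues, whereas the astrocyte list had a median difference near 0 in each genotype. Whether a level reflects more cells of a type or more RNA per cell cannot be told apart in bulk tissue. The 10 astrocyte genes summed to 143288 to 163118 normalized counts in KO striatum, 143009 to 179639 in WT striatum, 162072 to 182413 in KO cortex and 159560 to 201307 in WT cortex. Slc1a2 alone ranged from 70943 to 126736, so it weighs most in these sums. Of the 10 genes 1 was higher and 1 lower in striatum than cortex in KO, and 3 were higher and 0 lower in WT, with medians of -0.04 and 0.01. All 7 oligodendrocyte genes were higher in striatum in both genotypes (median 1.22 in KO and 1.42 in WT), with sums of 142849 to 292677 in KO striatum, 206493 to 287171 in WT striatum, 75250 to 89195 in KO cortex and 53902 to 114845 in WT cortex. General neuronal genes (7) had 0 higher and 3 lower in KO and 0 higher and 4 lower in WT. Of all genes tested, 37.9% passed between tissues in KO and 50.5% in WT. The neuronal counts are not far from these shares, and the astrocyte counts lie below them. KO striatum replicate 4, whose Phgdh count was the highest of its group, also had the highest oligodendrocyte sum (292677) and replicate 3, with the lowest Phgdh, the lowest (142849). The other groups did not follow this order. In WT striatum Phgdh was highest in replicate 5 and the oligodendrocyte sum in replicate 8 (287171). WT cortex replicate 8 had the highest sum of its group (114845) and the lowest Phgdh (1118). In KO cortex Phgdh was highest in replicate 1 and the sum in replicate 4 (89195). The part of these cell types in the tissue and genotype differences was not tested. Between genotypes few marker genes passed, but several lists leaned one way. In KO against WT striatum 0 of 10 astrocyte genes passed, with a median of -0.09 (2 above 0 and 8 below). Striatal projection neuron genes were below 0 in 9 of 9 cases (median -0.82, 0 passed), oligodendrocyte genes in 7 of 7 (median -0.28, 0 passed) and microglia genes in 6 of 6 (median -0.23, 0 passed). Cortical excitatory neuron genes were above 0 in 7 of 8 (median 1.28, 1 passed). In KO against WT cortex, choroid plexus genes were above 0 in 8 of 8 (median 1.25, 0 passed) and striatal projection neuron genes below 0 in 9 of 9 (median -0.42, 0 passed).

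**Figure D4:**
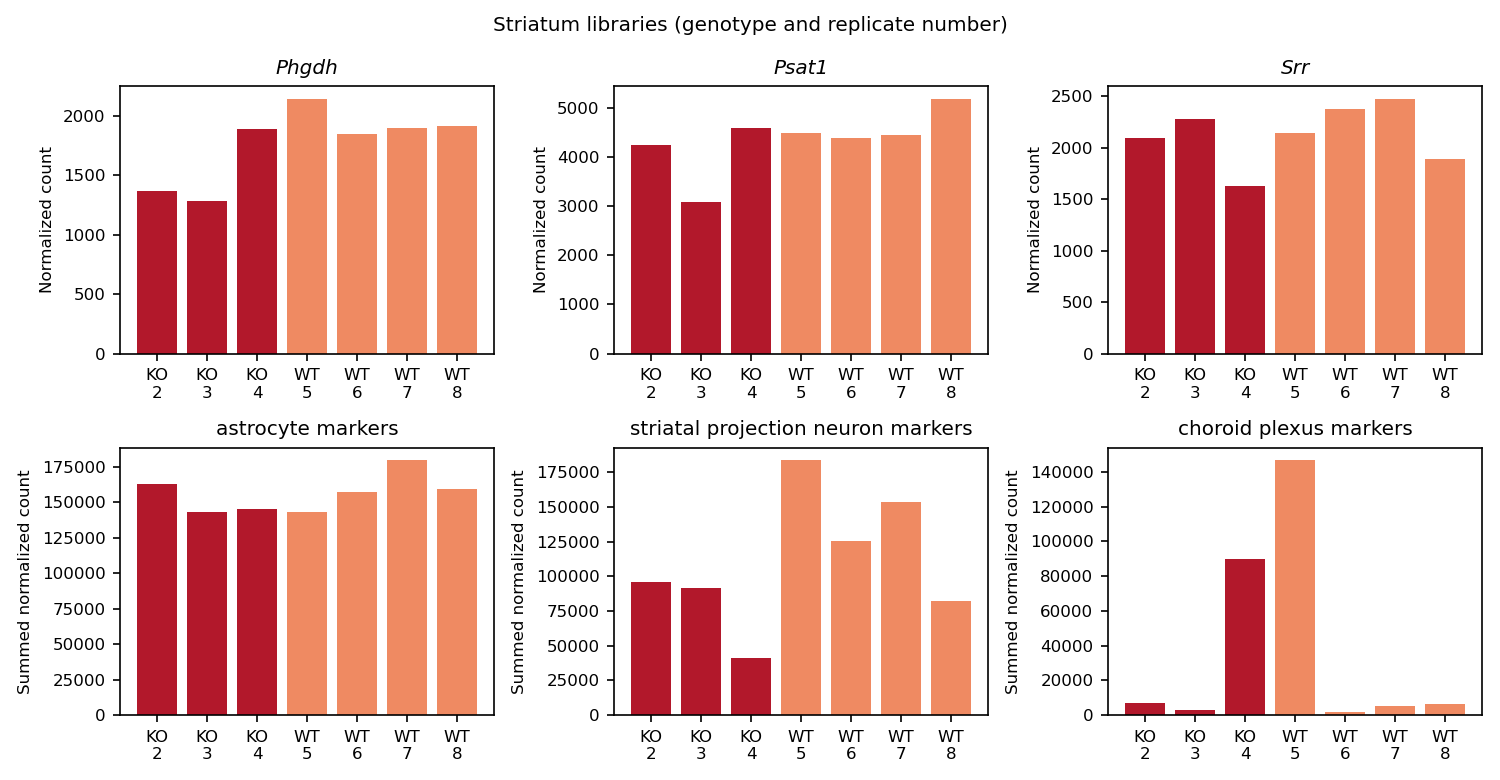
Normalized counts of Phgdh, Psat1 and Srr (top) and summed normalized counts of astrocyte, striatal projection neuron and choroid plexus markers (bottom) in each of the 7 striatum libraries, a bar each, KO left of WT. KO replicate 4 and WT replicate 5 have the high choroid plexus sums (90030 and 146795), and KO replicate 4 and WT replicate 8 the lowest striatal sum of their group.

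Other genes around serine passed between tissues in somewhat smaller shares than all genes did. Of 51 listed, 49 were tested (Sptlc3 and Agxt were too low). In striatum against cortex, 11 were higher and 4 lower in KO (30.6%) and 14 higher and 8 lower in WT (44.9%), with medians of 0.05 and 0.08. Over all genes 37.9% passed in KO and 50.5% in WT. The difference from these shares was not tested, either for all listed genes or for the single short lists below. In KO against WT, 1 passed in each tissue, Slc1a4 itself.

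Among the 9 folate enzymes, 4 were higher and 2 lower in KO striatum than KO cortex, and 3 and 2 in WT. Mitochondrial Mthfd2 averaged 285 ± 46.6 normalized counts in KO striatum against 134 ± 14.5 in KO cortex (log2 1.08, limma adjusted p = 0.000220), and 214 ± 42.2 in WT striatum against 114 ± 20.7 in WT cortex (0.90, limma adjusted p = 0.000299). Its relative Mthfd2l differed by 0.78 in KO (limma adjusted p = 0.0220) and 0.80 in WT (limma adjusted p = 0.00949), and Aldh1l2, a mitochondrial formyltetrahydrofolate dehydrogenase, by 0.95 in KO (limma adjusted p = 0.00783). Of the 4 genes of the glycine cleavage system, Gcsh was higher in striatum in KO (0.20, limma adjusted p = 0.0362) and WT (0.30, limma adjusted p = 0.00154), and Dld in WT (0.25, limma adjusted p = 0.00164).

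Of the genes of lipid synthesis from serine, 1 of 4 tested was higher in striatum in KO and 2 of 4 in WT. These were subunits of serine palmitoyltransferase, which starts sphingolipid synthesis: Sptlc2 was higher by 0.51 in KO (limma adjusted p = 0.0216) and 0.50 in WT (limma adjusted p = 0.0116), and Sptlc1 by 0.18 in WT (limma adjusted p = 0.0128). Cth, of transsulfuration, was higher in WT striatum (0.49, limma adjusted p = 0.0131). Of the 6 plasma membrane carriers, 2 were higher in each genotype. Slc38a1 differed by 0.40 in KO (limma adjusted p = 0.0161) and 0.29 in WT (limma adjusted p = 0.0401), Slc7a10, the glycine and D-serine carrier Asc-1, by 0.38 in KO (limma adjusted p = 0.0321) and Slc1a5 by 0.41 in WT (limma adjusted p = 0.0464). Sfxn3, a relative of Sfxn1, was lower in KO striatum (2254 ± 226 against 2805 ± 139 in KO cortex, -0.32, limma adjusted p = 0.00519).

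Of the genes around D-serine, Ddo, the oxidase of acidic D-amino acids, was higher in striatum (0.73 in KO, limma adjusted p = 0.0348; 0.78 in WT, limma adjusted p = 0.0129). Grin1, the obligatory NMDA receptor subunit, averaged 9331 ± 576 in KO striatum against 13441 ± 224 in KO cortex (-0.53, limma adjusted p = 2.32e-05), and 9706 ± 531 in WT striatum against 13206 ± 747 in WT cortex (-0.44, limma adjusted p = 2.76e-05). Grin1 thus went the same way as Srr. Disc1, a binding partner of serine racemase, was lower in WT striatum (-1.03, limma adjusted p = 0.00323). In glycolysis, Bpgm was higher (0.27 in KO, limma adjusted p = 0.00985; 0.36 in WT, limma adjusted p = 0.000482) and Eno1 lower in WT (-0.18, limma adjusted p = 0.0271). Glyctk, glycerate kinase, was higher in WT striatum (0.69, limma adjusted p = 0.0101). Of Atf4 and 5 of its targets outside serine synthesis, Trib3 was higher (1.49 in KO, limma adjusted p = 0.00329; 1.46 in WT, limma adjusted p = 0.00147), whereas Atf4 (-0.40, limma adjusted p = 0.00329) and Sesn2 (-0.28, limma adjusted p = 0.0390) were lower in WT.

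The genes with the most similar profiles were found by the root-mean-square log2 difference over the 15 libraries, among 11653 genes whose mean normalized count reached 100. Nearest to Phgdh were Npc2 (0.136), Pde6d (0.141) and Tsc22d4 (0.142), and nearest to Psat1 were Adi1 (0.0797), Tsc22d4 (0.0801) and Zcchc24 (0.0802). Tsc22d4 was thus among the 3 nearest of both. Srr had Fam171b (0.0657), Cul9 (0.0732) and Tdg (0.0745), and Sfxn1 had Zeb1 (0.0707), Pdxk (0.0806) and Hsdl1 (0.0885). For scale, the profiles themselves had root-mean-square deviations of 0.384 for Phgdh, 0.302 for Psat1, 0.220 for Srr and 0.305 for Sfxn1. Libraries of both tissues enter this measure.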

How the data were processed

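The members and the gene lists were chosen with earlier results of these data known. The deposited table gives, per the file headers, a normalized count (signal) per gene in each library; the authors scaled the read counts of each library by its own factor. Per the submitters' processing notes, the tools were TopHat2 2.1.1, HTSeq 0.6.0, DESeq2 1.12.4, FastQC 0.11.5 and cutadapt 1.1, with the build GRCm38. Per the labels' protocols, NEBNext Ultra libraries came from 800 ng of total RNA, and reads were 75 bp single-end. The annotation release and the strand setting of the counting are not given in the sources used here. All values (100%) were within 0.001 of whole reads after division by 1 step for each library, so reads were recovered.

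The 17030 genes that reached a normalized count of 10 in 3 or more libraries entered limma 3.58.1 (trend option, R 4.3.3) as log2(normalized count + 1). All 15 libraries were fitted together with 4 group means, leaving 11 residual degrees of freedom. Fold changes are on that scale and understate the change of low genes. P-values were adjusted by Benjamini-Hochberg over all 17030 genes. The test was checked on simulated counts. Alternatives were other pseudocounts (0.5 and 5), filters (none and 50) and scalings, edgeR 4.0.16 and DESeq2 1.42.0 on the recovered reads, sample weights, single tissues or genotypes, a replicate block and omitted libraries. GENCODE M21 (GRCm38) gave positions and exon lengths and matched 99.0% of identifiers. Intervals for summed reads are exact (Clopper-Pearson) at 95%. All 10 members are named. Of each pathway list, up to 3 called genes with the largest change are named, and for Phgdh, Psat1, Srr and Sfxn1 the 3 genes with the nearest profile. A gene that this rule takes is not reported here. Figures were drawn with matplotlib 3.10.9.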

Additional observations from a re-analysis of the deposited data

Results flagged for a closer look

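In 3 of the 30 sets of 4 libraries checked (chance gives about 1 in 20), a library stood apart from the other 3 of its group by Dixon's criterion. Psat1 had 5189 normalized counts in WT striatum replicate 8, above the 4385 to 4488 of the others. Srr had 2597 in KO cortex replicate 2, below the 2729 to 2744 of the others. Dao had 17.04 in WT cortex replicate 8, where the others had at most 1 read.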

How the results depend on the processing

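Of 1221 log2 differences recomputed under alternatives, 1185 kept their side of the threshold, 22 were no longer called and 14 became called. The sign turned in 23, all of differences that were called neither before nor after and were at most 0.15 in size over all libraries. Phgdh, Psat1 and Sfxn1 between tissues were called in 28 of 28 alternatives in each genotype, and Srr in 28 of 28 in KO and 24 of 28 in WT. The number of members called in KO against WT striatum, 0, was 1 (Phgdh) without KO striatum replicate 4 and WT striatum replicate 5, and 1 without KO striatum replicate 4 and WT striatum replicate 8; leaving out single libraries gave 0 to 1. The count over all genes moved more. For KO against WT in striatum it was 13, and became 22 without a filter, 25 with total-read scaling, 35 with sample weights, 320 with DESeq2, 344 and 862 without those library pairs, 0 in a fit of striatum alone and 4 to 517 with single libraries left out. For KO against WT in cortex it was 1, 2 with weights and 3 with DESeq2. For the difference between those effects it was 1, 4 with weights, 15 with DESeq2, 19 and 26 without the pairs, and up to 8 without a single library. Run on the recovered reads, edgeR called 17 genes for KO against WT in striatum, 1 in cortex, and 6523 in KO and 8640 in WT for striatum against cortex. Total-read scaling raised the higher calls to 61% of those between tissues in KO. Whether a replicate number marks the same animal in both tissues is not stated, and the main fit did not pair the tissues. The deviations of 7 same-numbered pairs correlated weakly, at 0.00369 to 0.142, 2 of them over 0.1. Of the 7 cortex libraries, 6 correlated best with the striatum library of their own number. With a replicate block, and Sds left out, the members called between tissues in each genotype were the same as without it. These were Phgdh, Psat1, Sdsl and Sfxn1, higher in striatum, and Srr, lower. For the difference 0 members were called and 0 of all genes passed. Sds and Dao are limited by depth.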
